A study of Mus musculus with 2 samples.

Results

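The cluster of miR-191 and miR-425 consists of 2 miR hairpins that lie close together on one strand of the mouse genome, and it was examined in sperm of naive WT mice. Its members were found by name in the deposited counts, and all entries that carried the name miR-191 or miR-425 were kept. This gave 4 of 1886 mature miRs, the 5p and the 3p arm of each hairpin. The cluster was chosen by its read counts in these same libraries, in which miR-191-5p is among the most abundant miRs, so the levels below are a description and carry no test. All mice were wild-type C57BL/6J, aged 3 months and labelled as naive, and the sperm was taken from the epididymis and treated with a detergent buffer to lyse somatic cells. Both libraries are of this 1 condition, and per the methods they are separate biological samples. Whether a replicate is 1 mouse or a pool is not given in the sources used here. The names under which the counts were deposited also carry a string that reads as post-treatment, and the labels do not explain it. The depth was 4049599 miR reads in replicate 1 and 5648067 in replicate 2. In each library, reads were divided by the total of the miR reads and scaled to 1000000, and this unit is called CPM. At these depths, 3 reads corresponded to 0.741 CPM in replicate 1 and to 0.531 CPM in replicate 2. The reads carry no molecular identifiers, so all intervals given here cover counting error only.

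A miR hairpin is cut out of a longer primary transcript in the nucleus by Drosha and is then cut by Dicer into a short duplex. One strand of the duplex is loaded into an Argonaute protein and the other is mostly degraded, so the arms of a hairpin usually differ in level. The bases at positions 2 to 8 of the loaded strand, the seed, are the main part that pairs with target mRNAs. Hairpins made from a shared primary transcript are transcribed together, but their mature products can differ in level through processing, loading and decay. miR-191-5p is found in many tissues and is often used as a reference for the normalization of miR qPCR, and miR-425-5p is also used for this purpose.

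The mature sequences show how different the products of the 2 hairpins are. They were taken from RefSeq (GRCm38.p6), are given 5′ to 3′, and have the seed in capitals:
miR-191-5p: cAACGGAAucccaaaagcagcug
miR-191-3p: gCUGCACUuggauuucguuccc
miR-425-5p: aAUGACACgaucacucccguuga
miR-425-3p: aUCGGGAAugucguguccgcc

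The 4 seeds differ from each other, so the arms form 4 separate seed groups. No run of more than 5 bases was shared between any 2 of the 4 arms. Each mature sequence belongs to 1 hairpin in RefSeq, and none shared a run of 15 bases, the minimum read length, with another mature miR listed there. Reads of these arms could therefore be assigned to them without a competing mature miR in that list. Among the RefSeq mature miRs, only miR-489-3p carried the seed of one of the arms, that of miR-425-5p, and it is shown for comparison:
miR-489-3p: aAUGACACcacauauauggcagc

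miR-489-3p had 0 reads in both libraries, which allows up to 0.741 CPM in replicate 1 and 0.531 CPM in replicate 2. At this depth, miR-425-5p was the only one of these miRs with this seed for which reads were counted.

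Both hairpins are on the plus strand of chromosome 9. Mir191 spans 74 bases (GRCm38, chr9:108568319-108568392) and Mir425 spans 85 bases (chr9:108568777-108568861), with 384 bases between them. The hairpins are printed here to show where the arms sit, with the mature arms in capitals:
Mir191: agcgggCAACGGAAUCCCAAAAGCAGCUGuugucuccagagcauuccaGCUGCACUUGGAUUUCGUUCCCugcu
Mir425: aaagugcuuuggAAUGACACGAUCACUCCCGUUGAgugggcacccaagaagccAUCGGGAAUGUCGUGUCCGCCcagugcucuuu

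The predicted minimum free energy was -35 kcal/mol for Mir191 and -31.7 kcal/mol for Mir425, with 56 paired bases in each predicted structure. In this structure, 19 of 23 bases of miR-191-5p and 14 of 23 bases of miR-425-5p were paired. At the 5′ end, 3 of the first 4 bases of miR-191-5p and 1 of the first 4 bases of miR-425-5p were paired, whereas all 4 were paired in each 3p arm. GC content was 52.2% in miR-191-5p, 54.5% in miR-191-3p, 47.8% in miR-425-5p and 61.9% in miR-425-3p.

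The annotations differ in what they place around the hairpins. In RefSeq, both lie within the protein-coding gene Dalrd3 (chr9:108567484-108572773, plus strand). In GENCODE M21, Dalrd3 (ENSMUSG00000019039.14) starts 1024 bases after the end of Mir425. The gene around the hairpins in this annotation is a lincRNA, 4833445I07Rik (ENSMUSG00000103103.1, chr9:108567533-108569174). Both hairpins lie in the single exon of its transcript 4833445I07Rik-201. In 4833445I07Rik-202, Mir191 lies in the intron between exon 1 and exon 2, and the transcript ends 2 bases before Mir425 starts. A further miRNA gene, Gm24083 (ENSMUSG00000092915.1), is annotated on the minus strand over Mir191. Whether the counting used strand is not given in the sources used here, so reads from that strand could not be told apart from reads of Mir191 if they were counted together.

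**Figure D1:**
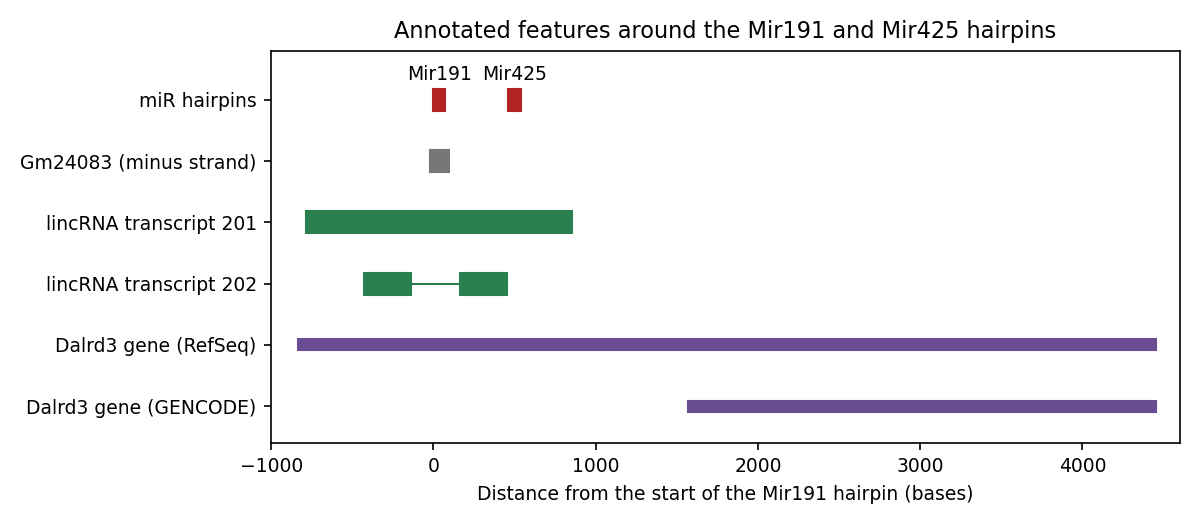
Features annotated around the cluster, by their distance in bases from the start of the Mir191 hairpin (x axis), with 1 row for each feature. Boxes are hairpins, exons or whole genes and the thin line is an intron. Both hairpins lie inside the longer lincRNA transcript and inside the RefSeq span of Dalrd3. In GENCODE M21, Dalrd3 starts 1493 bases after the end of Mir191 and 1024 bases after the end of Mir425.

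The cluster was one of the main sources of miR reads in sperm, and nearly all of its reads came from 1 of its 4 arms. Together the 4 arms had 139382 reads in replicate 1, which was 3.44% of that library, and 95359 reads in replicate 2, which was 1.69%. The mean share was 2.57% ± 1.24 (SD, n = 2 libraries). All 4 arms had reads in both libraries. The background was 378 of 1886 miRs with a read in each library.

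miR-191-5p, the main product of the first hairpin, was counted 138463 times in replicate 1, at 34192 CPM (Wilson 95% interval 34015 to 34369). In replicate 2 it was counted 94813 times, at 16787 CPM (16681 to 16893). It was the fourth most abundant miR in each library, at rank 4 of the 484 miRs with a read in replicate 1 and of the 442 in replicate 2. Only miR-10b-5p, miR-10a-5p and miR-143-3p had more reads. When the reads of miR-10a-5p and miR-10b-5p were left out of the total, miR-191-5p made up 15.5% of what remained in replicate 1 and 8.55% in replicate 2.

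miR-425-5p, the main product of the second hairpin, was counted 872 times in replicate 1, at 215 CPM (Wilson 95% interval 201.5 to 230.1). In replicate 2 it was counted 526 times, at 93.1 CPM (85.5 to 101). It ranked 56th of 484 in replicate 1 and 74th of 442 in replicate 2, and 61st by mean CPM among the 378 miRs with a read in each library. It was therefore well above the detection limit, but far below the product of its neighbor.

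The 3p arms had few reads, and all but miR-191-3p in replicate 1 were close to the detection limit. miR-191-3p had 41 reads at 10.1 CPM (7.46 to 13.7) in replicate 1 and 10 reads at 1.77 CPM (0.962 to 3.26) in replicate 2. miR-425-3p had 6 reads at 1.48 CPM (0.679 to 3.23) in replicate 1 and 10 reads at 1.77 CPM (0.962 to 3.26) in replicate 2. Of these, miR-191-3p was the higher in replicate 1, with intervals that did not overlap, and both had the same number of reads in replicate 2.

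By mean CPM the order was miR-191-5p with 25489 ± 12307 CPM, miR-425-5p with 154 ± 86.4 CPM, miR-191-3p with 5.95 ± 5.91 CPM and miR-425-3p with 1.63 ± 0.204 CPM (SD, n = 2 libraries). The levels of the first 3 did not overlap, since the lower library of each was above the higher library of the next. Those of the third and the fourth overlapped.

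**Figure D2:**
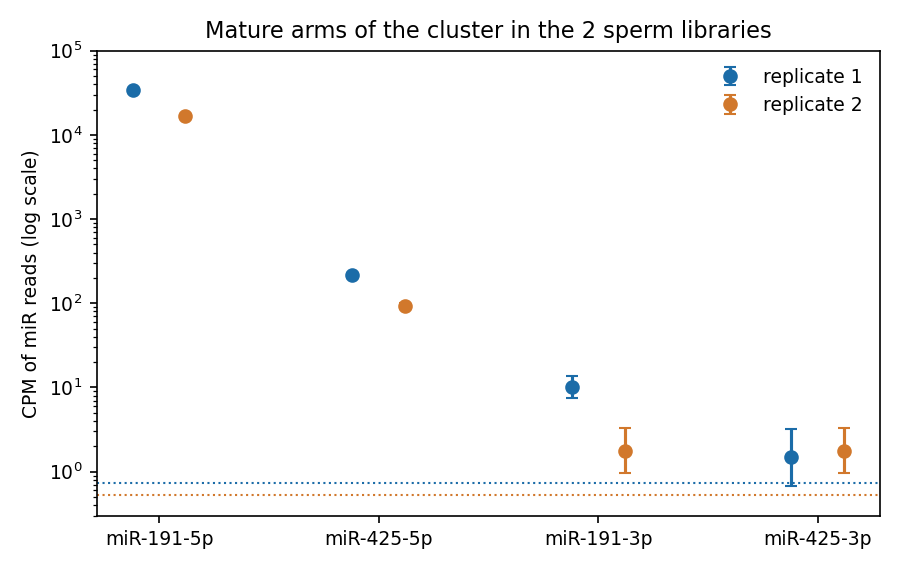
CPM of the 4 mature arms of the cluster (y axis, log scale) in replicate 1 and replicate 2, where bars are Wilson 95% intervals and dotted lines mark the CPM of 3 reads in each library. miR-191-5p lies at 34192 and 16787 CPM, miR-425-5p between 93.1 and 215 CPM, and both 3p arms near the dotted lines in replicate 2.

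Next, the levels of the 2 hairpins were compared within each library, where the scaling of the library has no part in the ratio. miR-191-5p had 159 times the reads of miR-425-5p in replicate 1 (exact 95% interval 149 to 170) and 180 times in replicate 2 (165 to 197). On the log2 scale the ratio was 7.31 and 7.49, a mean of 7.40 ± 0.13 (SD, n = 2). With both arms of each hairpin summed, the ratio was 158 in replicate 1 and 177 in replicate 2. The Mir425 hairpin thus gave 0.630% of the cluster's reads in replicate 1 (Wilson 95% interval 0.590% to 0.673%) and 0.562% in replicate 2 (0.517% to 0.612%). The ratio of the 5p arms was 1.14 times as high in replicate 2 as in replicate 1, with an exact 95% interval of 1.02 to 1.27. This difference was small beside the ratio itself.

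Between the 3p arms the ratio was much smaller. miR-191-3p had 6.83 times the reads of miR-425-3p in replicate 1 (exact 95% interval 2.88 to 19.7) and the same number in replicate 2 (0.374 to 2.68). Even miR-425-5p had 21.3 times the reads of miR-191-3p in replicate 1 and 52.6 times in replicate 2. Read counts of 2 different sequences also carry differences in ligation and amplification, which were not measured here, so these ratios are ratios of reads and need not be ratios of molecules.

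To place this ratio, 24 other pairs of hairpins known to be made from a shared primary transcript were examined in the same way, with the dominant arm of each hairpin. Of these, 21 pairs, made of 37 hairpins, had at least 10 reads on each hairpin in each library. This minimum leaves out pairs in which 1 hairpin is near 0 reads, which can be very unequal. Among those left out, miR-449a had 1170 and 599 reads against 0 and 0 of miR-449c. The ratio of that pair could not be computed and may be larger than that of miR-191 and miR-425. Pairs that share a hairpin are not independent. The absolute log2 ratio between the hairpins had a median of 2.88, or 7.38-fold, and ranged from 0.04 to 8.36. The value of 7.40 for miR-191 and miR-425 was exceeded by 1 of the 21 pairs. This was miR-143 and miR-145a, the smooth muscle and stromal pair, which was also the nearest in value. As the cluster was chosen by its read counts, with miR-191-5p among the most abundant miRs, the choice itself favored a high ratio. With the minimum of 10 reads, pairs with few reads on both hairpins could not reach 7.40. The place of the cluster among the pairs is therefore a description only. miR-143-3p had 165421 reads in replicate 1 and 349579 in replicate 2, against 470 and 1146 reads of miR-145a-5p. With both arms summed, the order of these top pairs was reversed, at 7.38 for miR-143 and miR-145a and a value of 7.38 for miR-191 and miR-425 that was higher by less than 0.01. The smallest ratio was that of miR-17 and miR-20a, products of the miR-17-92 cluster, which had 67 and 67 reads in replicate 1 and 67 and 71 in replicate 2. The next pair below miR-191 and miR-425, chosen after its values were seen, was miR-27b and miR-23b with 5.42, or 42.8-fold.

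The ratio between the hairpins differed by 0.18 on the log2 scale between the libraries for miR-191 and miR-425. Across the 21 other pairs this difference had a median of 0.33 and ranged from 0.02 to 2.41, and 7 pairs had a smaller one. The cluster was therefore below the median but not among the extremes. The pairs at the upper end of the range were ones with few reads, such as miR-132 and miR-212, which had at most 40 reads on either dominant arm and a value of 2.41.

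**Figure D3:**
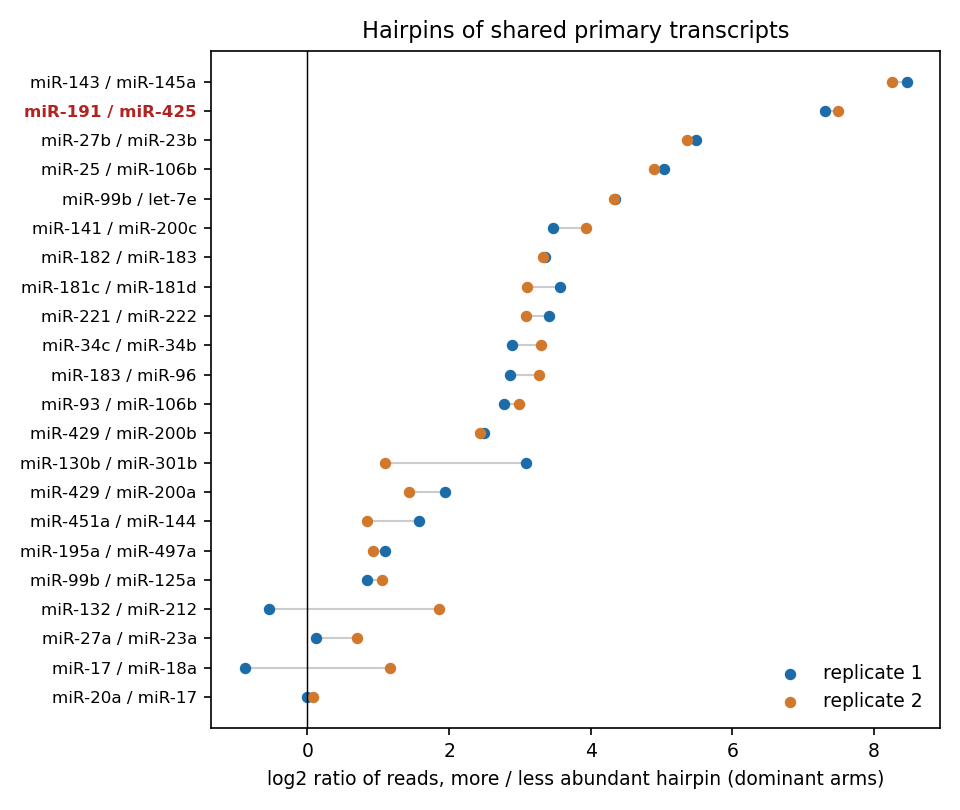
log2 ratio of reads between the more and the less abundant hairpin of pairs from shared primary transcripts (x axis), with 1 row for each pair and 1 point for each library. Only pairs with at least 10 reads on each hairpin in each library are shown. miR-191 and miR-425 (7.31 and 7.49) lie far to the right of the median of the other pairs, 2.88. Of the pairs shown, only miR-143 and miR-145a lie beyond them.

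Both hairpins were read almost entirely from the 5p arm. For miR-191, the 3p arm made up 0.0296% of the hairpin's reads in replicate 1 (Wilson 95% interval 0.0218% to 0.0402%, 138504 reads) and 0.0105% in replicate 2 (0.00573% to 0.0194%, 94823 reads). The 5p arm thus had 3377 times the reads of the 3p arm in replicate 1 (exact 95% interval 2489 to 4706) and 9481 times in replicate 2 (5155 to 19772). Relative to the 5p arm, the 3p arm was at 0.356 of its replicate 1 value in replicate 2 (0.159 to 0.723), which rests on 51 reads of miR-191-3p in all.

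For miR-425, the 3p arm made up 0.683% of the hairpin's reads in replicate 1 (Wilson 95% interval 0.314% to 1.48%, 878 reads) and 1.87% in replicate 2 (1.02% to 3.4%, 536 reads). The 5p arm had 145.3 times the reads of the 3p arm in replicate 1 (exact 95% interval 66.5 to 397) and 52.6 times in replicate 2 (28.4 to 110.3). Relative to the 5p arm, the 3p arm was at 2.76 times its replicate 1 value in replicate 2, and the interval of 0.903 to 9.30 included no difference. The share of the 3p arm was lower for miR-191 than for miR-425 in both libraries, with intervals that did not overlap.

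Over 119 hairpins that had both arms listed, a read in each library and at least 100 reads in all, the less abundant arm made up a median of 0.621% of the reads, both libraries pooled. On this measure miR-191 had 0.0219% and miR-425 had 1.13%. The less abundant arm had 0 reads in both libraries for 32 of the 119 hairpins, among them 3 of the 22 hairpins with at least 10000 reads. Among the 87 hairpins with a read on each arm, the median was 1.96%, miR-191 had the sixth lowest value (rank 6) and miR-425 was at rank 36. As a read on each arm was required here, hairpins with few reads could not show a low share, so this rank also reflects depth. Among hairpins with at least 10000 reads, miR-10b (0.00348%), miR-182 (0.00403%), miR-10a (0.00473%) and miR-204 (0.0155%) were below miR-191, besides the 3 at 0. The 5p arm was the dominant one in 67 of the 119 hairpins, as in both hairpins of the cluster.

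The main arms of both hairpins were lower in replicate 2, and by similar amounts. The log2 ratio between replicate 2 and replicate 1 was -1.03 for miR-191-5p (exact 95% counting interval -1.04 to -1.01), or 2.04-fold. miR-425-5p differed by -1.21 (-1.37 to -1.05), or 2.31-fold. miR-191-3p differed by -2.52 (-3.68 to -1.49). miR-425-3p differed by 0.26 with an interval of -1.35 to 2.0, so no difference between the libraries was detectable for this arm at its depth. As both libraries are of the same condition, these values describe the spread between replicates and no effect of a treatment.

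These differences were set against those of all miRs for which both libraries together had at least 10 reads, which included all 4 arms. Of the 323 such miRs, 22.3% were lower in replicate 2 by at least 2-fold, against 3 of the 4 arms. The median log2 ratio of all 323 was -0.29, and 213 of them were below 0. An absolute log2 ratio larger than that of miR-191-5p was found for 98 of the 323 miRs (30.3%), larger than that of miR-425-5p for 72 (22.3%) and larger than that of miR-191-3p for 9 (2.79%). The main arms were therefore within the range in which many miRs differed between these libraries. As miR-191-5p was at rank 4 by mean CPM, few miRs could have a larger absolute ratio at a higher level, and none did. miR-10b-5p, miR-10a-5p and miR-143-3p, which ranked above it, had log2 ratios of 0.13, -0.16 and 0.60. miR-148a-3p and miR-182-5p, at ranks 5 and 6 by mean CPM, had -0.57 and -0.15. None of these named miRs was lower in replicate 2 by as much as miR-191-5p. Some miRs at lower but still high levels were, such as miR-34c-5p with -1.18 at 2148 CPM. Others were miR-25-3p with -1.07 at 1082 CPM and miR-470-5p with -1.41 at 1005 CPM. At such levels, miR-26a-5p (5803 CPM) had -0.16, and the joined entry of miR-486a-5p and miR-486b-5p (4997 CPM) was higher, with 1.15.

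The size of the difference depended on the scaling, as TMM moved the median of all miRs by 0.35 to 0.06. After TMM scaling the log2 ratio was -0.68 for miR-191-5p, -0.86 for miR-425-5p, -2.17 for miR-191-3p and 0.61 for miR-425-3p. Then 13.9% of all miRs and 1 of the 4 arms, miR-191-3p, were lower by at least 2-fold. With the size factors of DESeq2 these numbers were 14.2% and 1 of 4. The direction was the same for each of the 4 arms under both scalings.

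**Figure D4:**
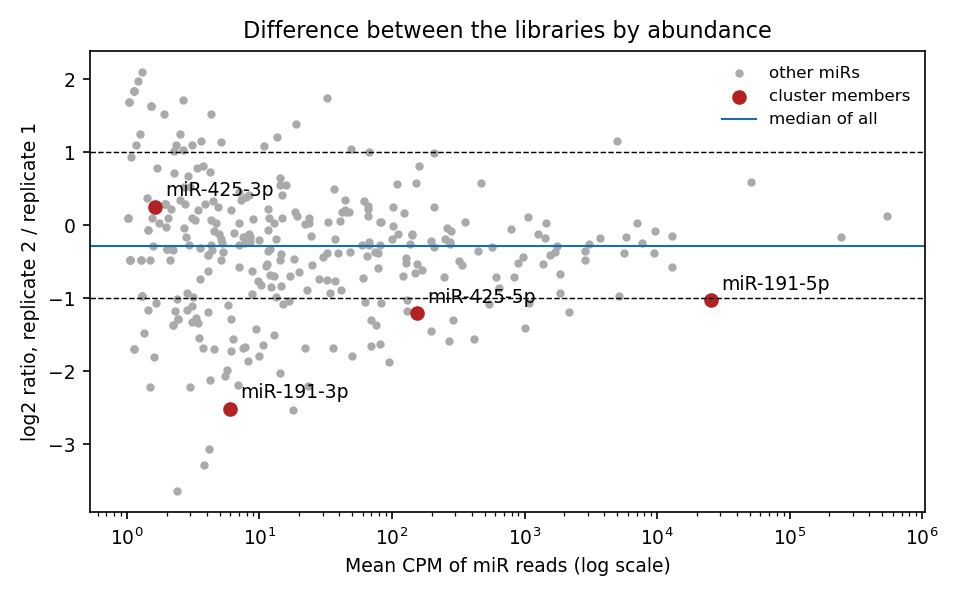
log2 ratio of replicate 2 to replicate 1 (y axis) against the mean CPM (x axis, log scale) for miRs for which both libraries together had at least 10 reads, leaving out 5 with 0 reads in one library. Dashed lines mark a 2-fold difference and the blue line the median of -0.29. The 5p arms lie at -1.03 and -1.21, miR-191-3p lies at -2.52 and miR-425-3p lies above 0.

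Markers of cell types differed between the libraries as well. Some entries within a set are arms of 1 hairpin or come from a shared primary transcript. Examples are miR-34b with miR-34c, miR-144 with miR-451a, and miR-143 with miR-145a. The counts of entries below are therefore not counts of independent markers. Among the 323 miRs examined above, 65.9% were lower in replicate 2, and 46.1% after TMM scaling. Summed germ-cell markers, among them miR-34c-5p and miR-449a-5p, made up 0.402% of replicate 1 and 0.168% of replicate 2, a log2 ratio of -1.26. The list held 10 miRs, and 8 of them had an entry in the counts, while miR-871-3p and miR-880-3p had none. Of the 8 entries, 7 had a read in both libraries and were lower in replicate 2, and miR-449c-5p was at 0 in both. Most of this sum was miR-34c-5p, and the other entries together were 0.103% and 0.0364%, a ratio of -1.51. Epithelial markers were 1.08% and 0.883%, a log2 ratio of -0.29 that was close to the median of all miRs, with 6 of 7 entries lower. Most of this sum was miR-141-3p, and the other entries together were 0.242% and 0.176%, a ratio of -0.46. Smooth muscle and stromal markers were 4.13% and 6.26%, a log2 ratio of 0.60, with all 6 entries higher. Nearly all of this sum was miR-143-3p, and the other entries together were 0.0478% and 0.0678%, a ratio of 0.50. Blood markers were 0.333% and 0.722%, a log2 ratio of 1.12, with 7 of 8 entries higher. Most of this sum was the joined entry of miR-486a-5p and miR-486b-5p, and the others together were 0.0222% and 0.0331%, a ratio of 0.58. After TMM scaling the log2 ratio was -0.91 for the germ-cell, 0.06 for the epithelial, 0.95 for the stromal and 1.47 for the blood sum. The main arms of the cluster thus differed in the same direction as the germ-cell markers and in the opposite direction to the blood and stromal ones under both scalings. The direction of the epithelial sum, which was mostly miR-141-3p, turned with TMM, where 3 of its entries were lower and 4 higher. The part of the cell types in the difference of miR-191 and miR-425 was not tested, and a lower number of cells of a type and less RNA per cell cannot be told apart in such bulk samples. Reads assigned to no miR were 38.1% of the listed reads in replicate 1 and 26.3% in replicate 2.

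Since miR-191-5p and miR-425-5p serve as references in qPCR, they were set beside 10 other widely expressed miRs with this use. No reference miR reached the level of miR-191-5p, and 6 of the 10 had a higher mean than miR-425-5p. The most abundant of them was miR-26a-5p, with 24779 and 30995 reads and a mean of 5803 ± 446 CPM (SD, n = 2). All 10 were lower in replicate 2 when scaled by the total of miR reads, with log2 ratios from -1.17 to -0.03 and a median of -0.59. After TMM scaling 6 were lower and 4 were higher, with ratios from -0.82 to 0.32 and a median of -0.24. For comparison, 65.9% of the 323 miRs examined above were lower when scaled by the total, and 46.1% after TMM scaling.

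miR-425-5p had a lower ratio than all 10, and miR-191-5p had a lower ratio than all but 1. That one was miR-92a-3p, with 731 and 453 reads and a log2 ratio of -1.17. This value lay within the counting interval of miR-425-5p, -1.37 to -1.05, so the order of miR-425-5p and miR-92a-3p was not resolved. miR-16-5p, with 9818 and 7195 reads, had a ratio of -0.93. At the other end, miR-30e-5p had 1058 and 1444 reads, or 261 and 256 CPM, and a ratio of -0.03. miR-186-5p had 1161 and 1534 reads and a ratio of -0.08, and miR-103-3p had 595 and 766 reads and a ratio of -0.12. A level expressed relative to miR-191-5p would therefore differ between these libraries from one expressed relative to miR-30e-5p by the distance of their log2 ratios, which no scaling changes.

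**Figure D5:**
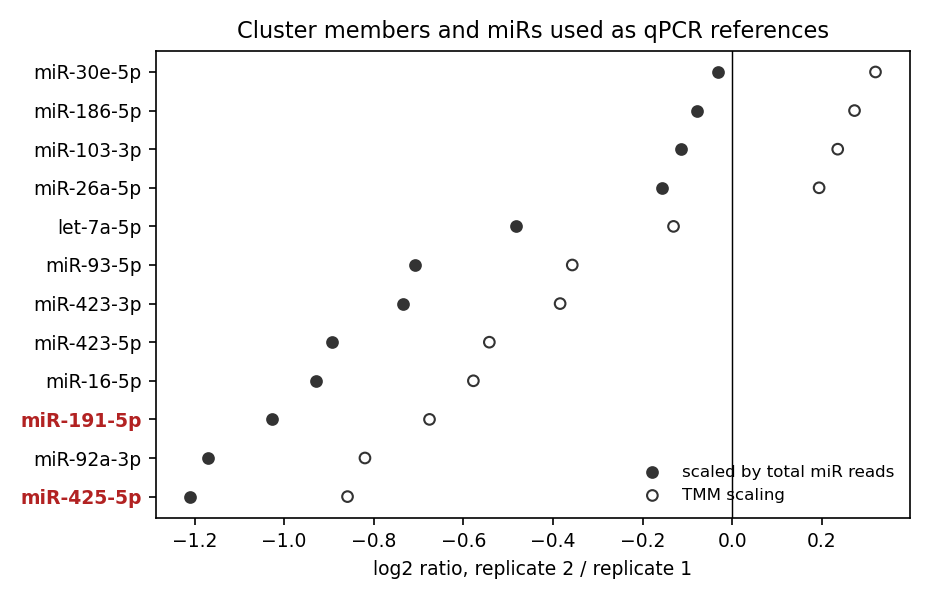
log2 ratio of replicate 2 to replicate 1 (x axis) for miR-191-5p, miR-425-5p (red labels) and 10 other miRs used as references in qPCR, scaled by the total of miR reads (filled points) or by TMM (open points). miR-425-5p is the lowest at -1.21 and miR-191-5p the third lowest at -1.03, while miR-30e-5p is the highest at -0.03 (filled points).

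Lastly, the miRs with the most similar levels were looked for, by the sum over the 2 libraries of the absolute differences in log2(CPM + 1). With 2 libraries, this measure mostly reflects abundance. The nearest to miR-425-5p were miR-148b-3p with 702 and 482 reads at a distance of 0.44, miR-92a-3p with 731 and 453 reads at 0.47, and miR-872-5p with 607 and 522 reads at 0.53. miR-191-5p had no such close neighbor. The nearest were miR-182-5p with 54950 and 69140 reads at a distance of 1.79, miR-148a-3p with 62781 and 59104 reads at 1.82, and miR-143-3p with 165421 and 349579 reads at 2.14. Of these, miR-143-3p had more reads than miR-191-5p in both libraries and the other two had fewer.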

How the data were processed

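Sperm small RNA of naive WT mice was sequenced in 2 libraries. The authors trimmed low-quality ends and adapters with cutadapt 1.8.1, kept reads of at least 15 bases, and mapped them with Bowtie 1.1.2, starting with miR and piRNA sequences and exact matches. Per the labels, HTSeq and the GRCm38 build were also used. The authors deposited raw read counts per mature miR, which were analysed as deposited. Exact matching drops reads with added or misread bases, which can lower the count of arms that are often modified. Rows that name no miR (38.1% and 26.3% of the listed reads) were left out of library totals.

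The members and lists were chosen with earlier results of these data known. Named were the arms of the cluster, the 3 miRs nearest in level to each 5p arm, the 10 reference miRs, miRs with a shared seed, and the pairs with the largest, smallest and nearest ratio. Marker miRs and the 24 pairs came from general knowledge. Wilson and exact (Clopper-Pearson, or conditional for a ratio of ratios) intervals were at 95%. TMM factors came from edgeR 4.0.16 and size factors from DESeq2 1.42.0 (R 4.3.3). Structures were predicted with ViennaRNA 2.7.2, and other values came from Python 3.11.15 and scipy 1.17.1. With 1 condition and 2 libraries, no comparison between conditions could be tested. Computations were tested on simulated data. Sequences were from RefSeq (GRCm38.p6), where 1608 of the 1886 entries were matched, all 4 arms included.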

Additional observations from a re-analysis of the deposited data

How the results depend on the processing

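All ratios within a library are free of scaling, and neither summing the arms nor adding 0.5 reads moved the log2 ratio between the hairpins by more than the SD of the libraries. Leaving miR-10a-5p and miR-10b-5p out of the total raised the mean to 120426 CPM for miR-191-5p, 726 CPM for miR-425-5p, 27.5 CPM for miR-191-3p and 7.87 CPM for miR-425-3p, by construction of the smaller total. With all listed reads as the total, miR-425-3p was at 1.11 CPM. The log2 ratio between the libraries for miR-191-5p was -0.68 with TMM, -0.68 with DESeq2 size factors, -0.86 without the miR-10 reads and -0.77 with all listed reads. For miR-425-5p it was -0.86, -0.87, -1.05 and -0.96 in the same order. The share of miRs with at least a 2-fold difference in either direction was 31.9%, against 26.3% with TMM, 26.6% with DESeq2 size factors and 21.2% with at least 100 reads. The median log2 ratio between hairpins of other pairs was 2.88, and 2 alternatives chosen after seeing the data gave 2.28 for listed pairs within 2000 bases and 2.08 for 38 neighboring RefSeq pairs. With the minimum of 10 reads on each hairpin, none of those pairs exceeded miR-191 and miR-425. Among the 58 RefSeq pairs with at least 1 read, 3 with fewer reads did. In the RefSeq pairs, an arm with 1 name for several hairpins was not counted for them. Among the 3, miR-24-1 was thus counted by miR-24-1-5p (3 and 3 reads) without miR-24-3p (604 and 768). Likewise, let-7c-1 was counted by let-7c-1-3p (1 and 7 reads) without let-7c-5p (25953 and 27799). Such hairpins, among them let-7c-2, were also in the 38 pairs, so those ratios need not be of main products. Under these alternatives no value of the 4 arms changed direction. The median of the 323 miRs, the epithelial marker sum and 4 of the 10 reference miRs did so with TMM, as given above. With 2 libraries, each library alone lies within 1 SD of the mean, so leaving one out shows no stability. Depth limits the 3p arms, with 6 to 41 reads in a library.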
